A study of Mus musculus with 50 samples.

Results

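This report describes whole nucleus accumbens RNA of mice that stayed socially interactive after chronic social defeat, set against that of undefeated mice. It rests on 12 libraries out of the 50 samples of the study, namely the 6 input libraries labelled resilient (Res) and the 6 labelled control (Con). They were chosen by their labels and not by any measured value. Input is the RNA of a tissue homogenate taken before the ribosomes of selected cells were precipitated, so that it comes from all cells of the punched tissue.

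The mice were C57BL/6 animals aged 8 to 12 weeks that carried the RiboTag (RT) allele, a floxed *Rpl22* gene that yields an HA-tagged ribosomal protein once Cre has acted, together with a bacterial artificial chromosome transgene for Cre. In RT; D1-Cre mice Cre is driven from the *Drd1* gene and in RT; D2-Cre mice from the *Drd2* gene. Controls and defeated mice alike thus carried tagged ribosomes in the cells with Cre, among them 1 type of medium spiny neuron (MSN). Defeated mice met an aggressive CD1 retired breeder on up to 10 days, for 10 min per day by the labels and for a shorter time by the study's methods, and were sorted as resilient or susceptible (Sus) by a social interaction test 24 h after the last defeat. Controls were kept in like cages with mice of their own strain. Each library held 2 mm punches of 2 pooled mice, and pooled defeated mice had similar interaction scores. RNA with an integrity number under 7 had been excluded. Each line contributed 3 Res and 3 Con inputs, and 6 further Sus inputs entered the model only to estimate the spread. By the study's methods the mice came from several rounds of defeat, and libraries were put into sequencing sets at random. Which library belonged to which round or set is not given in the sources used here, and the part of these batches in the results was not tested.

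The nucleus accumbens is the ventral part of the striatum and takes part in reward and motivation. Most of its neurons are GABAergic MSNs, which express either the dopamine receptor D1 or the dopamine receptor D2 and receive glutamatergic input from cortex, thalamus, hippocampus and amygdala. In mice, a part of the animals exposed to repeated defeat keeps normal social behavior, and this outcome is called resilience. RNA of whole tissue averages over MSNs, interneurons, glia and vessel cells, and in such data fewer cells of a type and less RNA per cell cannot be told apart.

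The 12 libraries held 18384265 to 28179940 counts on genes, and 17209 to 17522 genes had at least 1 count in a library. Entries that name no gene held 35.9% to 39.3% of the reads and were left out. MSN markers were abundant in every library, with *Ppp1r1b*, which encodes the dopamine-regulated phosphatase inhibitor DARPP-32, at 582 to 993 CPM (normalized counts per 1e+06 counts), *Drd1* at 152 to 265 CPM and *Drd2* at 64.9 to 127 CPM. *Rpl22*, the gene of the tagged allele, was at 56.4 ± 1.76 CPM (SD, n = 6) in Con and 54.7 ± 1.68 CPM (SD, n = 6) in Res, a log2 fold change of -0.05 (95% confidence interval -0.13 to 0.04). Of the 7 choroid plexus genes looked up, the 5 that failed the filter on low counts included *Ttr*, at 0 to 1.35 CPM. Libraries nevertheless differed in the levels of genes typical of neighboring tissue, and the part of dissection in this was not tested. The summed level of 12 genes of cortical excitatory neurons ran from 329 to 1084 CPM in Con and from 362 to 1417 CPM in Res, with the highest value in the library D1 Res 3, and the summed level of 8 meningeal and fibroblast genes ran from 145 to 318 CPM in Con and from 117 to 550 CPM in Res, with the highest value in D1 Res 1. *Rn45s*, the ribosomal RNA precursor, took 2.40% to 5.34% of gene counts in the 3 D1 Con libraries, 6.09% to 8.59% in the 3 D1 Res libraries and at least 9.78% in the 6 D2 libraries. Some of the results that rest on these libraries are given with and without them.

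**Figure D1:**
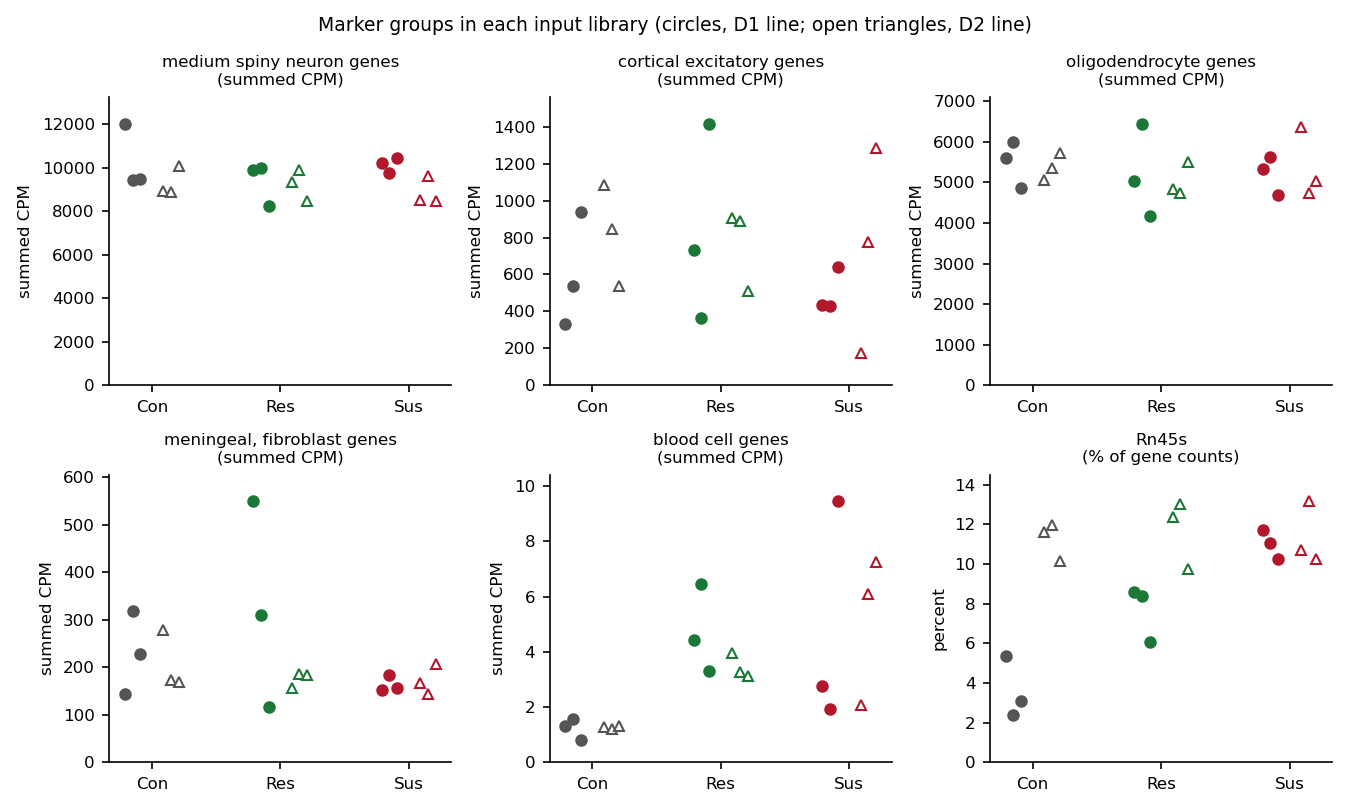
Summed normalized counts (CPM) of 5 marker groups and the share of gene counts on *Rn45s* (percent) in each of the 18 inputs by stress group, with circles for the D1 line and open triangles for the D2 line. Shared MSN genes sum to between 8254 and 12022 CPM, cortical genes reach 1417 CPM in 1 Res library and meningeal genes 550 CPM in another. All 6 Res libraries lie above all 6 Con libraries for the sum of blood cell genes. That sum is mostly *Alas2*, the only member that could be tested and a gene named for this separation, so it says nothing of the group.

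No gene differed between Res and Con inputs after adjustment for the number of genes tested. With edgeR's quasi-likelihood test on the counts, with line as a covariate and Benjamini-Hochberg adjustment, 0 of 14820 genes had an adjusted p under 0.05, and the smallest adjusted p was 0.999. At an unadjusted p under 0.05, the threshold the study used between stress groups, 467 genes (3.15%) passed, 211 of them higher in Res (1.42%) and 256 lower (1.73%). A threshold of 0.05 would pass 741 of 14820 genes by itself, so the count of 467 lay below that number. DESeq2 called 0 genes at an adjusted p under 0.05 and 536 of 20051 at an unadjusted p under 0.05. The number of genes per step of 0.05 in p went up from 467 in the lowest step to 841 in the highest.

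The differences seen were small. Among the 467 genes past the unadjusted threshold the median difference was 1.13-fold, 369 differed by less than 1.3-fold, and 11 differed by more than 2-fold, 6 higher and 5 lower in Res. The 6 Res values and the 6 Con values of log2 CPM did not overlap for 25 genes (0.169%), of which 15 lay higher (0.101%) and 10 lower (0.0675%) in Res. Among so many genes some are likely to separate under any split into 6 and 6, so this count is a description only. The intervals show how large a difference these libraries would have left unseen. The median standard error of a log2 fold change was 0.08, its 95% confidence interval reached a median of 0.16 to either side, and the biological coefficient of variation was 10.3%. The whole interval lay within 1.3-fold in either direction for 73.4% of tested genes, within 1.5-fold for 84.1% and within 2-fold for 94.9%. Precision followed expression, since the interval lay within 1.3-fold for 97.7% of the third of genes with the highest level and for 28.5% of the third with the lowest.

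**Figure D2:**
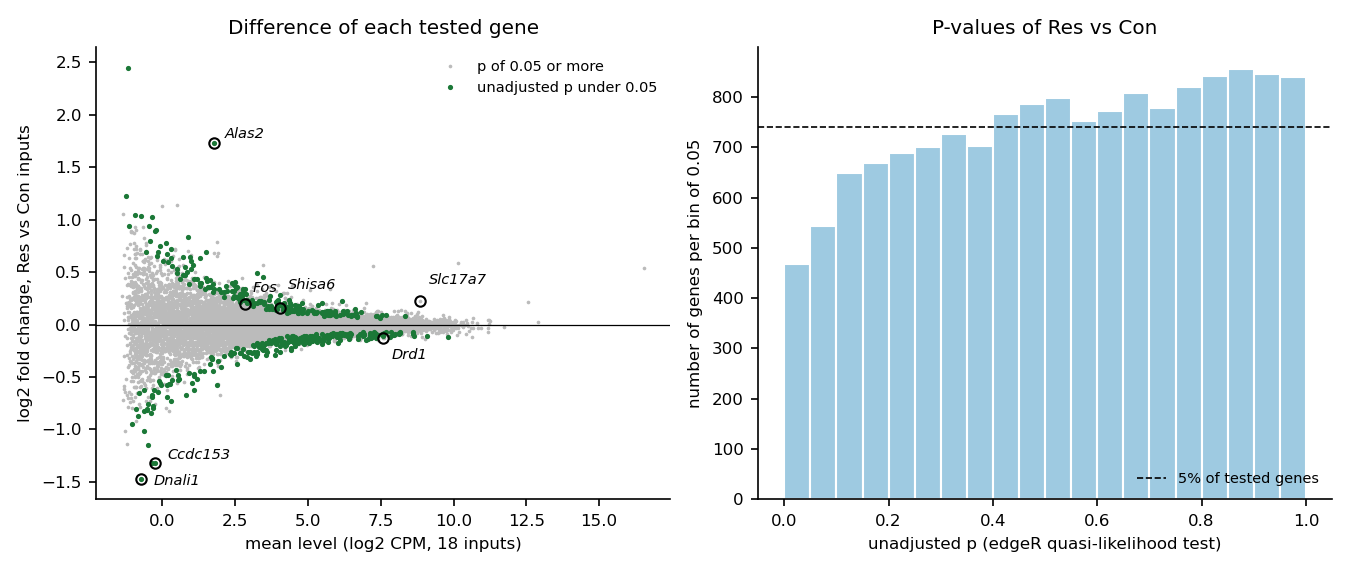
Left, log2 fold change of Res against Con inputs for each of the 14820 tested genes (y axis) against its mean level in log2 CPM over 18 inputs (x axis), with genes at an unadjusted p under 0.05 in green and 7 genes of the text circled. Right, the number of genes per step of 0.05 in unadjusted p, where the lowest step holds 467 genes, below the dashed line at 741, which is 5% of the tested genes.

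Among the named genes, *Alas2*, *Dnali1* and *Ccdc153* had the largest differences, all over 2-fold. *Alas2* encodes the erythroid form of 5-aminolevulinate synthase, which starts heme synthesis in red cell precursors. *Dnali1*, for a light intermediate chain of axonemal dynein, and *Ccdc153*, for a coiled-coil protein of motile cilia, are genes of ciliated ependymal cells. The 300 bases around their RefSeq starts on GRCm38.p6 (250 before and 50 after the start, in the direction of the gene) are printed because these 3 genes had the largest differences among the named genes. They lie at chrX:150547167-150547466 on the plus strand for *Alas2*, chr9:44240427-44240726 on the plus strand for *Ccdc153* and chr4:125065608-125065907 on the minus strand for *Dnali1*. Capitals mark matches, on either strand, to AGATAA, the motif bound by erythroid transcription factors such as GATA1, in *Alas2*, and to GTTGCC, a part of the X-box of ciliary genes, in the others.
Alas2: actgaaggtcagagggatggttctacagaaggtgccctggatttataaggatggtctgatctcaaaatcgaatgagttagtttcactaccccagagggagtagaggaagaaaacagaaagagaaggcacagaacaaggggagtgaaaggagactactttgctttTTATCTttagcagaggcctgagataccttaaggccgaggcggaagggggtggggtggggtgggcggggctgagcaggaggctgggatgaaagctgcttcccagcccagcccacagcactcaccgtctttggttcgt
Ccdc153: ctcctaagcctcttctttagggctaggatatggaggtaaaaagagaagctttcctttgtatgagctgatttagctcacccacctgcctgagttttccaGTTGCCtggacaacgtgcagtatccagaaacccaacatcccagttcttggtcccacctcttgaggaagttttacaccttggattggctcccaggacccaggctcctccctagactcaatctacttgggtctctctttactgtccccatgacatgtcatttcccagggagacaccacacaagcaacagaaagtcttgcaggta
Dnali1: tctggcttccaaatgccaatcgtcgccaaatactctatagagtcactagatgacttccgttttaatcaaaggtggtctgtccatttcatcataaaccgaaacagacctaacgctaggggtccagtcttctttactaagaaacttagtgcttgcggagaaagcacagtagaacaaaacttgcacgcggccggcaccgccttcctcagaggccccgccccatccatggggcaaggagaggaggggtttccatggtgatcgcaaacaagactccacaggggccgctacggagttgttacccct

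The *Alas2* window held 1 match to AGATAA, on the strand opposite to the gene, 86 bases before the start, and 11.2% of 32851 promoter windows of this length held a match. The *Ccdc153* window held 1 match to GTTGCC, 152 bases before the start, the *Dnali1* window held 0, and 12.5% of all windows held one. A match is a description of these letters and not a bound site.

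*Alas2* lies on chromosome X (GENCODE vM21 on GRCm38, chrX:150547375-150570638). Its level in D1 Con inputs was 1.12, 1.53 and 0.796 CPM and in D2 Con inputs 1.24, 1.21 and 1.27 CPM. In Res inputs it was 4.17, 6.45 and 3.21 CPM in the D1 line and 3.94, 3.15 and 3.09 CPM in the D2 line, so the lowest Res library lay above the highest Con library in both lines. The means were 4.00 ± 1.28 CPM (SD, n = 6) in Res and 1.20 ± 0.239 CPM (SD, n = 6) in Con, a 3.33-fold difference with a 95% confidence interval from 1.86 to 5.95. The unadjusted p was 0.000434 and the adjusted p 0.999 with edgeR's quasi-likelihood test. This lack of overlap is a reason *Alas2* was named, so it is no test, and the same direction within each line follows from it. The log2 fold change was 2.01 in the D1 line and 1.44 in the D2 line. It did not differ detectably between lines (unadjusted p = 0.507, edgeR). Left-out single libraries moved the log2 fold change between 1.55 and 1.82. Sus inputs held 1.82 to 9.42 CPM, above all 6 Con inputs, and their SD of 3.13 CPM was larger than that of the other groups.

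The call for *Alas2* depends on which libraries set the spread. In a model of the 12 Con and Res inputs alone, it was the 1 gene past an adjusted p of 0.05 (adjusted p = 0.00584, edgeR), while DESeq2 on all 18 inputs gave it an adjusted p of 0.214 and every other alternative left the smallest adjusted p of any gene at 0.717 or more. Red cells are the known source of *Alas2* mRNA. The 6 globin symbols looked up beside it, *Hba-a1*, *Hba-a2*, *Hbb-bs*, *Hbb-bt*, *Hbb-b1* and *Hbb-b2*, were listed at 0 in all 18 inputs. They include near-identical copies, whose shared reads the counting may have left out, so these zeros are uncertain. The granulocyte genes *S100a8* and *S100a9* held 12 and 18 counts in all 18 inputs together. The part of blood in the *Alas2* difference was not tested.

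The 2 ependymal genes were lower in Res at an unadjusted p under 0.05, at low levels. In Sus inputs the mean of *Dnali1* was 0.341 CPM, beside 0.306 CPM in Res and 0.861 CPM in Con. For *Ccdc153* it was 0.728 CPM, beside 0.416 CPM in Res and 1.04 CPM in Con. *Dnali1* (chr4:125055338-125065703) held 1.35, 0.483 and 0.606 CPM in D1 Con, 0.865, 0.718 and 1.14 CPM in D2 Con, 0.482, 0.234 and 0.146 CPM in D1 Res and 0.303, 0.371 and 0.299 CPM in D2 Res. Its highest Res value lay just under its lowest Con value. *Dnali1* held 3 to 29 counts per Con or Res library and passed the filter on low counts chiefly through Con libraries. The separation is therefore no test. The log2 fold change was -1.47 with a standard error of 0.41 (unadjusted p = 0.00173, adjusted p = 0.999, edgeR), which is 0.361-fold with an interval from 0.200 to 0.651. *Ccdc153* (chr9:44240676-44247306) held 1.35, 1.45 and 0.796 CPM in D1 Con, 0.541, 0.884 and 1.23 CPM in D2 Con, 0.963, 0.234 and 0.243 CPM in D1 Res and 0.202, 0.408 and 0.448 CPM in D2 Res. The groups overlapped through the library D1 Res 1, and the ratio was 0.400 with an interval from 0.234 to 0.681 (unadjusted p = 0.00179, edgeR). Both ratios were alike in the 2 lines, at a log2 fold change of -1.49 and -1.47 for *Dnali1* and of -1.34 and -1.31 for *Ccdc153*. The other tested ependymal genes did not share this size of difference. *Foxj1*, the master transcription factor of motile cilia, had a log2 fold change of 0.00 (interval -0.31 to 0.32) over both lines, with -0.31 in the D1 line and 0.32 in the D2 line, *Hydin*, a protein of the ciliary central apparatus, -0.02 (-0.53 to 0.49) and *Rarres2*, which encodes chemerin, -0.26 (-0.65 to 0.13).

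**Figure D3:**
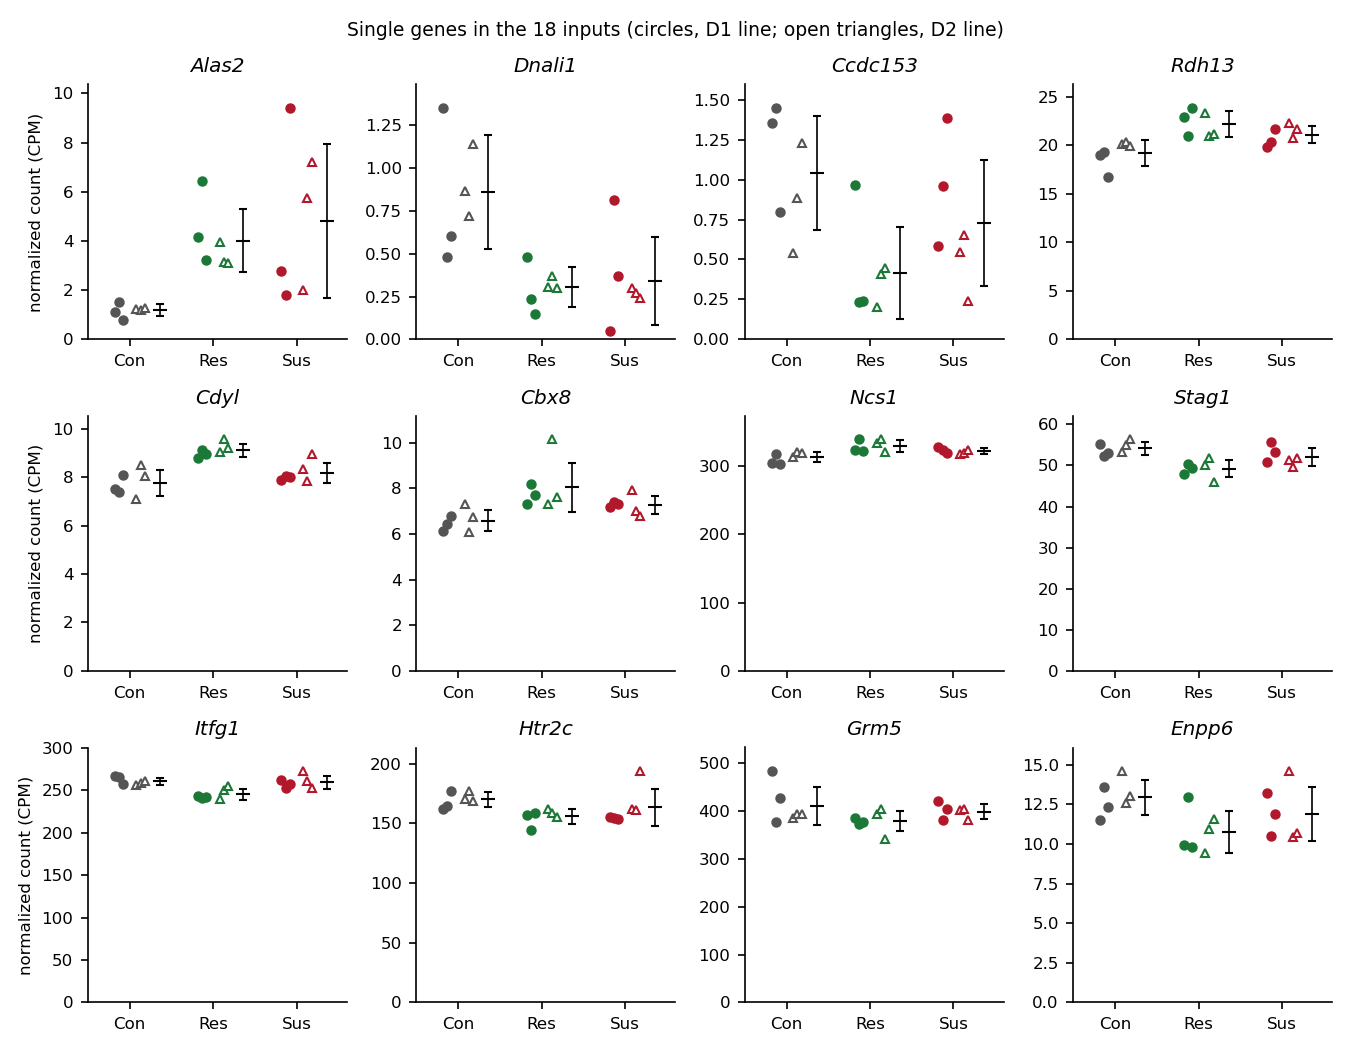
Normalized counts (CPM, y axis from 0) of 12 genes in each of the 18 inputs by stress group, with circles for the D1 line, open triangles for the D2 line and bars for the mean ± SD of 6 libraries. *Alas2* is at 0.796 to 1.53 CPM in Con and 3.09 to 6.45 CPM in Res, *Dnali1* and *Ccdc153* are lower in Res at under 1.5 CPM, and the other 9 genes differ by small amounts.

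Beyond *Alas2*, 9 genes were named for Res values that all lay above the Con values, and all of their differences were under 1.5-fold. They and the 5 genes named below for lower values were picked by their values in this same comparison, so their lack of overlap is how they were chosen and is no test. 2 of the 9 encode readers of repressive histone marks. *Cbx8*, a chromodomain subunit of Polycomb repressive complex 1, was at 6.07 to 7.30 CPM in Con and 7.33 to 10.2 CPM in Res, a log2 fold change of 0.29 with a standard error of 0.09. *Cdyl*, a chromodomain corepressor, was at 7.09 to 8.50 CPM in Con and 8.77 to 9.57 CPM in Res, 1.17-fold higher (interval 1.06 to 1.29).

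Others belong to metabolism. *Rdh13*, a mitochondrial retinol dehydrogenase, was at 16.7 to 20.4 CPM in Con and 20.9 to 23.9 CPM in Res (log2 fold change 0.21, unadjusted p = 0.00136, edgeR). By line, *Rdh13* had 0.30 in the D1 line and 0.11 in the D2 line, where it did not pass (unadjusted p = 0.162, edgeR). The difference between lines was not past the threshold (unadjusted p = 0.104, edgeR). *Ndufaf5*, an assembly factor of respiratory complex I, was at 20.5 to 23.5 CPM in Con and 23.6 to 26.5 CPM in Res (0.18, unadjusted p = 0.00145, edgeR). *Dgat1*, which makes triglycerides from diacylglycerol, was at 18.5 ± 0.932 CPM (SD, n = 6) in Con and 21.8 ± 1.57 CPM (SD, n = 6) in Res (0.23, unadjusted p = 0.00157, edgeR). *Gsta4*, the glutathione transferase for 4-hydroxynonenal, was at 13.1 to 14.2 CPM in Con and 14.4 to 16.8 CPM in Res, a log2 fold change of 0.21. For each of these 4 genes the gap between the groups was narrow, under 1 CPM.

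The remaining 3 were *Ncs1*, a neuronal calcium sensor, *Arvcf*, a catenin of adherens junctions, and *Ccdc163*, a coiled-coil gene. *Ncs1* was abundant and its difference was the smallest of the group, at 312 ± 7.55 CPM (SD, n = 6) in Con and 329 ± 8.56 CPM (SD, n = 6) in Res, which is 1.05-fold with an interval from 1.01 to 1.10. *Arvcf* was 1.10-fold higher (1.01 to 1.19). *Ccdc163* was at 2.10 to 2.99 CPM in Con and 3.00 to 3.94 CPM in Res, 1.34-fold higher (1.07 to 1.68).

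Of the genes whose Res values all lay below the Con values, 5 met the same rule. *Stag1*, a subunit of the cohesin ring, was at 54.2 ± 1.56 CPM (SD, n = 6) in Con and 49.2 ± 1.98 CPM (SD, n = 6) in Res, a log2 fold change of -0.14 with a standard error of 0.04 (unadjusted p = 0.00222, edgeR). *Htr2c*, the serotonin 2C receptor, was at 162 to 177 CPM in Con and 144 to 162 CPM in Res, 0.917-fold with an interval from 0.859 to 0.979, and its highest Res and lowest Con values differed by under 1 CPM. *Itfg1*, an integrin alpha repeat protein, had a log2 fold change of -0.09, with -0.12 in the D1 line and -0.06 in the D2 line. *Ppcdc*, an enzyme of coenzyme A synthesis, had -0.18. *Maml1*, the coactivator of Notch, had -0.13 and was the weakest of the 5 (unadjusted p = 0.0437, edgeR).

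Gene groups were then described by 34 lists of markers and pathways, which hold 376 distinct tested genes. Of these, 12 passed an unadjusted p under 0.05 (3.19%, against 3.15% of all tested genes), 4 higher and 8 lower in Res, and 0 passed after adjustment. The counts of list members given below are to be read beside that share of all tested genes. No member passed in 23 of 33 lists with a tested member, and the median log2 fold change lay within 0.1 of 0 in 26 of the 33. Over all tested genes the median was 0.00, with 7777 of 14820 above 0. The 22 genes encoded by mitochondrial DNA that were looked up were not found in the deposited counts and could not be tested.

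**Figure D4:**
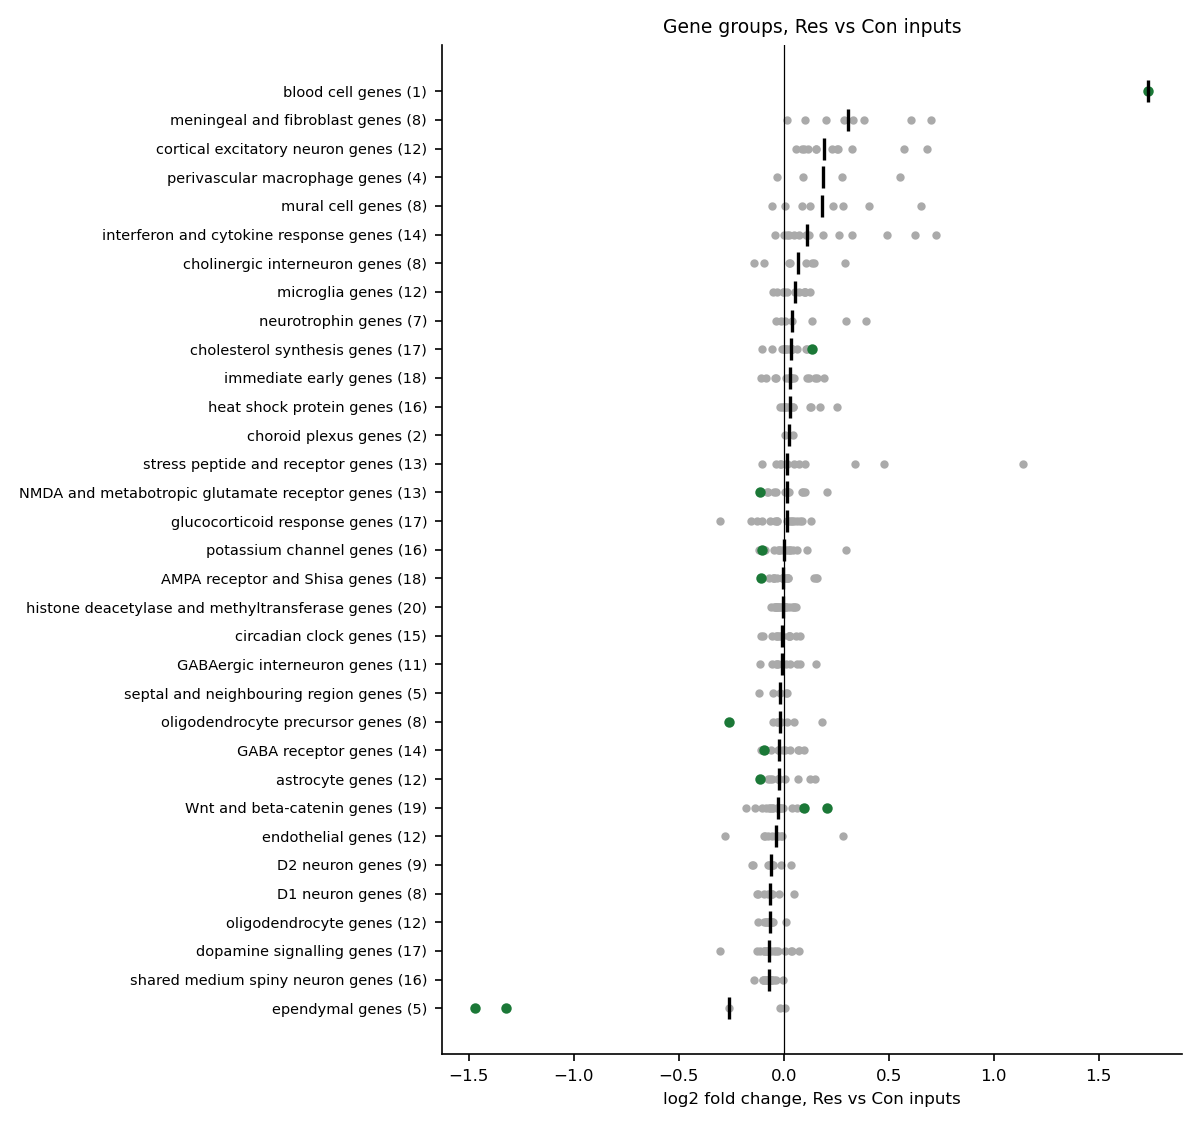
Log2 fold change of Res against Con inputs (x axis) for the tested members of 33 gene groups (rows, number tested in parentheses), with green points at an unadjusted p under 0.05 and a black bar at each group's median. Nearly all medians lie close to 0, and the exceptions are the lists of blood cell (1 gene), meningeal, cortical, perivascular macrophage, mural, interferon and ependymal genes.

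No MSN gene passed the unadjusted threshold over both lines and all libraries. The median log2 fold change was -0.07 over 8 genes of D1 neurons, -0.06 over 9 genes of D2 neurons and -0.07 over 16 genes shared by both types, with 0 of these 33 genes past the threshold and 1 of 8, 1 of 9 and 0 of 16 above 0. All 16 shared genes lay below 0, among them *Pde10a*, the striatal phosphodiesterase, at 902 ± 165 CPM (SD, n = 6) in Con and 843 ± 86.2 CPM (SD, n = 6) in Res (-0.09, interval -0.30 to 0.11). Without D1 Con 1, the library with the highest MSN level, 6 of the 16 lay above 0 and the median was -0.02. Without D1 Res 3, which had the lowest, 5 lay above 0 and the median was -0.03. The median of D2 neuron genes ran from -0.12 without D2 Res 2 to -0.00 without D1 Con 1, while that of D1 neuron genes lay between -0.10 and -0.04 with at most 2 of 8 above 0 whichever single library was left out. *Drd1* differed by -0.13 (-0.35 to 0.10), *Drd2* by -0.06 (-0.33 to 0.20) and *Ppp1r1b* by -0.05 (-0.26 to 0.17) on the log2 scale. The dopamine signalling list, which overlaps these, had a median of -0.07 over 17 genes with 0 past the threshold.

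No interneuron gene passed the unadjusted threshold over both lines and all libraries. The median was 0.07 over 8 cholinergic genes, where *Chat*, for choline acetyltransferase, held 15.4 ± 2.64 CPM (SD, n = 6) in Con and 15.6 ± 4.66 CPM (SD, n = 6) in Res. The cholinergic median was -0.10 in the D1 line and 0.16 in the D2 line, where 1 gene passed, and it ran from -0.05 without D2 Res 3 to 0.16 without D1 Res 3. The median was -0.01 over 11 genes of GABAergic interneurons, where *Sst*, for somatostatin, had an interval from -0.13 to 0.18 around 0.03.

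Cortical and meningeal genes had the opposite sign, with wide intervals. All 12 cortical excitatory genes lay above 0 with a median of 0.19, and 0 passed the unadjusted threshold. *Slc17a7*, the vesicular glutamate transporter of cortical neurons, was at 190 to 738 CPM in Con and 207 to 975 CPM in Res (0.23, interval -0.91 to 1.37), and *Fezf2*, a transcription factor of deep cortical layers, at 1.63 to 3.92 CPM and 1.89 to 8.07 CPM (0.68, -0.16 to 1.53). Without D1 Res 3, 4 of the 12 lay above 0 and the median was -0.10. In the D2 line the median was -0.05. All 8 meningeal and fibroblast genes lay above 0 with a median of 0.31, and without D1 Res 1 it was -0.03 with 4 of 8 above 0. *Col3a1*, a fibrillar collagen chosen after its values were seen, was at 5.94 CPM in D1 Res 1, 3.46 CPM in D1 Res 2 and 0.964 to 1.79 CPM in the other 10 libraries. Mural cell genes had a median of 0.18 over 8 genes and -0.01 without D1 Res 1, where *Myh11*, the smooth muscle myosin, also chosen after its values were seen, reached 11.3 CPM against 2.01 to 3.56 CPM in the other 11 libraries. Perivascular macrophage genes had a median of 0.18 over 4 genes, and it was 0.05 without D1 Con 1, 0.04 without D1 Res 1, 0.02 without D1 Res 2, 0.36 without D1 Res 3 and 0.32 without D2 Con 1.

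Among genes of glia and endothelium 2 passed the unadjusted threshold. Astrocyte genes had a median of -0.03 over 12, and *Slc1a3*, the glutamate transporter GLAST, was the 1 member past the unadjusted threshold, at 567 ± 34.2 CPM (SD, n = 6) in Con and 525 ± 24.0 CPM (SD, n = 6) in Res (-0.11, interval -0.21 to -0.02). Oligodendrocyte genes had a median of -0.07 over 12, 1 of them above 0. The median was -0.15, with 3 members past the threshold and 0 above 0, without D1 Res 2, and -0.01 without D1 Res 3. Without both D1 Res 1 and D1 Res 3, a setting chosen after seeing the data, it was 0.02. Of 8 genes of oligodendrocyte precursors, *Enpp6*, a choline phosphodiesterase of newly forming oligodendrocytes, passed the unadjusted threshold at 11.5 to 14.6 CPM in Con and 9.46 to 12.9 CPM in Res (-0.26, -0.46 to -0.06), and the list's median was -0.02. Microglia genes had a median of 0.05 over 12, with *C1qb*, a complement subunit, at 0.12 (-0.00 to 0.25) and *P2ry12*, the purinergic receptor of resting microglia, at -0.05. Endothelial genes had a median of -0.04 over 12, with 1 above 0, and *Cldn5*, the tight junction claudin of the blood-brain barrier, was at 15.5 ± 1.38 CPM (SD, n = 6) in Con and 14.7 ± 1.56 CPM (SD, n = 6) in Res (-0.08, -0.26 to 0.10). Genes of the septum and neighboring regions had a median of -0.02 over 5, and the 2 testable choroid plexus genes one of 0.03.

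Genes that respond to activity, glucocorticoids or heat differed little. Of 18 immediate early genes 0 passed the threshold and the median was 0.03. *Fos* was at 3.14 to 8.70 CPM in Con and 5.16 to 9.38 CPM in Res (0.19, interval -0.46 to 0.84), *Egr1* differed by 0.03 (-0.35 to 0.42) and *Arc* by 0.03 (-0.55 to 0.61). Of 17 glucocorticoid response genes 0 passed and the median was 0.01. *Fkbp5*, a cochaperone of the glucocorticoid receptor, held 41.2 ± 1.97 CPM (SD, n = 6) in Con and 42.2 ± 4.07 CPM (SD, n = 6) in Res, and the upper bound of its interval was 1.11-fold. *Nr3c1*, the receptor itself, differed by -0.04 (-0.13 to 0.04). Heat shock protein genes had a median of 0.03 over 16, circadian clock genes -0.01 over 15, and stress peptide and receptor genes 0.02 over 13, where *Oxt*, for oxytocin, was at 0 to 1.76 CPM in Con and 0 to 5.63 CPM in Res with an interval from -1.89 to 4.17 around 1.14.

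Receptor and channel genes held single members past the unadjusted threshold, each lower in Res by a small amount. Of 18 AMPA receptor and Shisa genes, *Shisa9*, an AMPA receptor auxiliary subunit, passed, at 148 ± 7.38 CPM (SD, n = 6) in Con and 137 ± 4.47 CPM (SD, n = 6) in Res (-0.11, interval -0.19 to -0.03). *Shisa6*, another such subunit, did not pass, at 12.8 to 17.0 CPM in Con and 13.8 to 20.1 CPM in Res (0.16, -0.05 to 0.37). Its log2 fold change was 0.31 in the D1 line (unadjusted p = 0.0426, edgeR) and 0.01 in the D2 line, and the difference between lines was not past the threshold (unadjusted p = 0.157, edgeR). The pore subunits *Gria1* and *Gria2* differed by -0.03 (-0.10 to 0.04) and -0.05 (-0.17 to 0.07). Of 13 NMDA and metabotropic glutamate receptor genes *Grm5*, the group I receptor mGluR5, passed at -0.11 (-0.22 to -0.00). Of 16 potassium channel genes *Kcnd2*, which encodes the A-type channel Kv4.2, passed at -0.11 (-0.20 to -0.01). The medians of these 3 lists were -0.00, 0.01 and 0.00, and that of 14 GABA receptor genes was -0.02. *Grm5* and *Kcnd2* were highest in D1 Con 1, at 484 and 187 CPM, and without that library their log2 fold changes were -0.06 and -0.07, no longer past the threshold. The neurotrophin list had a median of 0.04 over 7 genes, with *Bdnf* at 2.33 to 10.4 CPM in Con and 3.13 to 11.3 CPM in Res (0.30, -0.49 to 1.08).

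Among pathway lists, 2 of 19 Wnt and beta-catenin genes passed the unadjusted threshold, both higher in Res. Over all tested genes 3.15% passed, 1.42% of them all being higher, and with 2 members no trait of the pathway is read from this. *Dvl1*, the scaffold that carries the signal from Frizzled receptors, was at 86.0 ± 4.13 CPM (SD, n = 6) in Con and 91.7 ± 3.89 CPM (SD, n = 6) in Res (0.09, interval 0.01 to 0.17), and *Fzd1*, a Frizzled receptor, at 7.02 ± 0.841 CPM (SD, n = 6) and 8.08 ± 0.733 CPM (SD, n = 6) (0.20, 0.01 to 0.39). *Ctnnb1*, for beta-catenin, differed by -0.02 (-0.11 to 0.06), and the list's median was -0.03. The median of 17 cholesterol synthesis genes was 0.04. Of 20 histone deacetylase and methyltransferase genes 0 passed, with a median of -0.01 and all members between -0.06 and 0.06. *Sirt1*, an NAD-dependent deacetylase, held 18.2 ± 2.92 CPM (SD, n = 6) in Con and 17.7 ± 2.28 CPM (SD, n = 6) in Res. Interferon and cytokine response genes had a median of 0.11 over 14 with 0 past the threshold. *Isg15* and *Rsad2*, which interferon induces, were at 0.220 to 0.497 and 0.530 to 1.49 CPM in Con and 0.292 to 1.18 and 0.778 to 2.35 CPM in Res, with intervals of -0.05 to 1.49 and -0.11 to 1.36, and the median was 0.02 in the D2 line.

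For 11 genes that met the naming rule the unadjusted threshold was lost when 1 library was left out. Of the 26 such genes past the unadjusted threshold, 14 kept it in every setting that pooled both lines and tested them, among them *Alas2*, *Dnali1*, *Ccdc153*, *Rdh13*, *Ndufaf5*, *Dgat1*, *Cdyl*, *Cbx8*, *Stag1*, *Htr2c* and *Shisa9*. *Dnali1* and *Ccdc153* were too low to be tested at a mean of at least 50 counts. All 26 had been picked by their p in these same libraries, so keeping the threshold is no further support. *Ncs1* lost it without D1 Con 3, at 0.07. *Arvcf* lost it without D1 Con 2, D1 Res 2, D2 Con 1 or D2 Res 2, at 0.12 in each. *Ppcdc* lost it without D1 Res 2, D2 Con 1 or D2 Res 1, at -0.16 to -0.14. *Slc1a3* lost it without D1 Con 2, D1 Res 1 or D2 Res 1, at -0.10 to -0.08. *Dvl1* lost it without D1 Con 2, D1 Res 2, D2 Con 1 or D2 Res 1, at 0.07 to 0.08. *Kcnd2* lost it without any 1 of 5 libraries, with an unadjusted p of up to 0.112 (edgeR). *Maml1*, *Grm5* and *Fzd1* each lost it without any 1 of 8 libraries, with an unadjusted p of up to 0.119, 0.189 and 0.079 (edgeR). *Enpp6* lost it, at -0.20, without both D1 Res 1 and D1 Res 3. The direction was the same in all of these settings.

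The lines were compared in a model that fits each of the 6 combinations of line and stress by itself, over 15063 genes. At an unadjusted p under 0.05, 510 genes (3.39%) passed in the D1 line and 266 (1.77%) in the D2 line, and 0 passed in either after adjustment. The difference between the lines passed at an unadjusted p under 0.05 for 340 genes (2.26%) and for 0 after adjustment. Against the 6 Sus inputs, the 6 Res inputs differed at an unadjusted p under 0.05 in 785 genes (5.3%) and in 0 after adjustment, and for *Alas2* the log2 fold change of Res against Sus was -0.28 (unadjusted p = 0.438, edgeR). The values of 2 abundant noncoding RNAs are given as a description, since they were chosen for their pattern in these inputs. *Rn45s* was 2.40% to 5.34% of gene counts in D1 Con and 6.09% to 8.59% in D1 Res, with a log2 fold change of 1.15 in the D1 line and 0.07 in the D2 line. *Malat1*, a nuclear long noncoding RNA, was at 3569 to 5020 CPM in D1 Con and 5202 to 6038 CPM in D1 Res, with 0.38 and 0.07 in the same order. Reads outside annotated genes, as a share of those reads plus reads on genes, were 24.7% ± 0.831 (SD, n = 6) in Con and 25.3% ± 0.889 (SD, n = 6) in Res, a difference of 0.593 percentage points (two-sided exact permutation test within lines, p = 0.155, with 0.005 the smallest p its 400 relabellings can give). The difference was 0.319 points without D1 Con 2 and 0.789 points without D2 Con 2, with exact permutation p from 0.08 to 0.43 over left-out libraries. The part of nuclear or unspliced RNA in the counts was not tested.

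The same contrast in RNA bound to tagged ribosomes (IP) was available for 4 Res and 4 Con D1-IPs and 5 Res and 5 Con D2-IPs. In 1 model of these 18 IPs and the 12 inputs over 15235 genes, the Res against Con difference itself differed between inputs and IPs for 384 genes (2.52%) at an unadjusted p under 0.05 and for 0 after adjustment. This model takes inputs and IPs as independent libraries, although inputs were set aside from the homogenates used for IPs, so the counts do not use that pairing. Since the named genes were picked by their input values, the IP values are set beside them without a test of the difference. *Alas2* was low in IPs but had the same direction, with 0.0960 ± 0.0812 CPM (SD, n = 4) in D1 Con, 0.302 ± 0.107 CPM (SD, n = 4) in D1 Res, 0.0962 ± 0.0920 CPM (SD, n = 5) in D2 Con and 0.279 ± 0.190 CPM (SD, n = 5) in D2 Res. Its log2 fold change was 1.65 in D1-IPs (unadjusted p = 0.0192, edgeR) and 1.48 in D2-IPs (unadjusted p = 0.0244, edgeR), with adjusted p of 1 in both. No IP library of this model held more than 0.474 CPM of *Alas2*, and the gene passed the filter on low counts chiefly through the inputs. These p-values for *Alas2* in IPs are therefore no support for its difference in inputs. Because inputs were set aside from homogenates used for IPs, IPs and inputs share mice, and the IPs are no independent repeat.

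Of the named genes past an unadjusted p of 0.05 in inputs, most others lay nearer to 0 in IPs. Exceptions included *Ppcdc*, which at -0.18 in inputs had 0.24 in D1-IPs (unadjusted p = 0.0475, edgeR) and -0.05 in D2-IPs. *Slc1a3*, at -0.11 in inputs, had 0.14 in each type of IP. *Cdyl*, at 0.23 in inputs, had -0.20 in D1-IPs and 0.02 in D2-IPs, *Ndufaf5*, at 0.18, had -0.09 and -0.02, and *Stag1*, at -0.14, had 0.04 and 0.07. *Fzd1* was alike in all 3, at 0.20 in inputs and 0.16 in each type of IP. *Htr2c* had -0.07 in D1-IPs and 0.05 in D2-IPs beside -0.13 in inputs, and *Shisa6* had -0.25 (unadjusted p = 0.0997, edgeR) and 0.06 beside 0.16. *Dnali1* had -1.27 and -0.69 at a mean of under 0.1 CPM in every IP group.

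**Figure D5:**
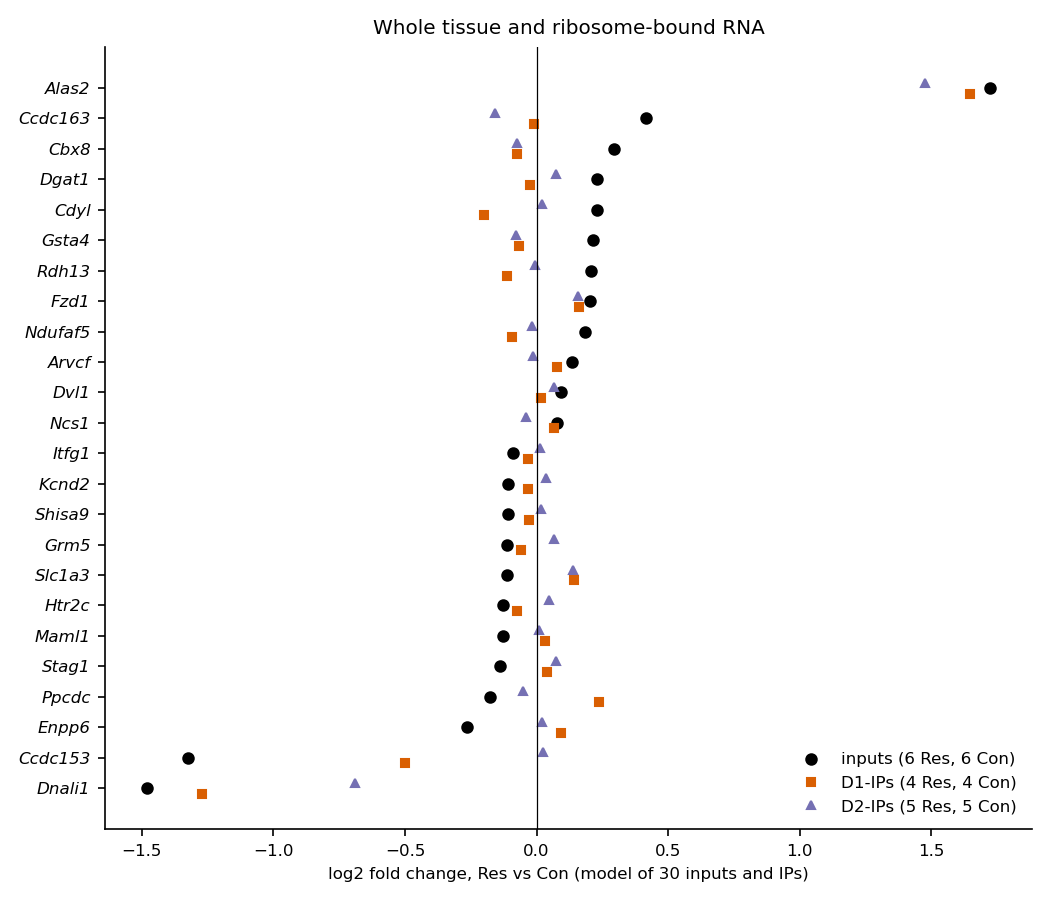
Log2 fold change of Res against Con (x axis) in inputs (circles), D1-IPs (squares) and D2-IPs (triangles) for 24 named genes past an unadjusted p of 0.05 in inputs (rows), from 1 model of 30 libraries. *Alas2* lies at 1.72, 1.65 and 1.48, while most of the other genes lie closer to 0 in IPs than in inputs, where they had been picked for their difference.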

How the data were processed

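RNA-seq counts of 18 input libraries (6 Con, 6 Res, 6 Sus) were compared, and 18 Con and Res IPs were set beside them. The deposited counts are whole numbers per gene symbol, made by the authors from poly-A stranded libraries with cutadapt, STAR (mm10) and HTSeq, whose versions, annotation and strand setting are not given in the sources used here. They are not normalized. Of the table's columns, 2 matched no sample and were not used, nor was the table of knockout libraries. Genes passed filterByExpr of edgeR 4.0.16 (R 4.3.3, limma 3.58.1) at its defaults, which ask for 15 counts in total. They also ask for a CPM equal to 10 counts at the median library size, in a number of libraries set by the design. TMM factors, CPM and robust quasi-likelihood tests followed, with stress and line as terms, with Benjamini-Hochberg adjustment. Intervals are 95% intervals of the log2 fold change. Depth was 18384265 to 28179940 counts on genes per library, and counts limit the precision of genes at low level.

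Positions follow GENCODE vM21 on GRCm38, where 41 of 42 symbols matched 1 gene, and promoters follow RefSeq GRCm38.p6. Named genes were those with p under 0.05, at least 1 CPM and no overlap of the 6 and 6 values (up to 10 per direction, without Gm and Rik symbols), members of each list with p under 0.05 (up to 4), and 10 fixed genes, from *Shisa6* to *Rpl22*. *Slc17a7*, *Col3a1*, *Myh11*, *Rn45s*, *Malat1* and *Foxj1* were added with their values known. Some genes that met the rule are not reported here. The comparison, lists and named genes were chosen with earlier results of these data known. Alternatives were RLE factors, other filters, DESeq2 1.42.0, other models, and left-out libraries. Programs were tested on simulated data. Of 18 replicate pairs none was a duplicate, with a chi-square per gene of 3.51 to 31.8. Figures used Python 3.11.15 and matplotlib 3.10.9.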

Additional observations from a re-analysis of the deposited data

Results flagged for a closer look

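Within the 6 Con or the 6 Res libraries, a value was singled out where its gap to the nearest other library exceeded Dixon's 95% critical share of the group's range. Chance singles out about 1 in 20 groups, and 9 of 144 were. *Alas2* was highest among Res inputs in D1 Res 2, at 6.45 CPM against 3.09 to 4.17 CPM in the other 5. *Rdh13* was lowest among Con inputs in D1 Con 3, at 16.7 CPM against 19.0 to 20.4 CPM. *Cbx8* was highest among Res inputs in D2 Res 2, at 10.2 CPM, *Ccdc153* in D1 Res 1, at 0.963 CPM, and *Fzd1* in D2 Res 3, at 9.51 CPM. The library D1 Con 1 stood above the other Con inputs for *Ppp1r1b*, at 993 CPM, and for the summed genes of D1 neurons, at 893 CPM. Summed microglia genes were highest in D1 Res 2, at 554 CPM against 468 to 495 CPM in the other Res inputs. Counts on genes were highest in D2 Res 2, at 28179940.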

How the results depend on the processing

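The count of 467 genes was 465 with RLE factors, 613 of 20055 without a filter, 386 of 12574 at a mean of at least 50 counts, 444 without the line term and 415 with only the 12 Con and Res inputs, where 1 gene (1 higher, *Alas2*) passed after adjustment. In the D2 line alone it was 266 (140 higher, 126 lower). Leaving out each library gave 366 to 524 (178 to 245 higher, 188 to 294 lower), lowest without D1 Con 1 and highest without D1 Res 3, and 0 to 0 after adjustment. The count for the difference between lines was 261 without D2 Res 1 and 487 without D1 Res 2. Chosen after seeing the data, the cortical gene level as a covariate gave 696 of 15246, *Rn45s* left out 468, and D1 Res 1 and D1 Res 3 left out 515. Of 26 genes that met the naming rule past the threshold, 6 kept it in every setting that tested them, 97 of 648 values lost it and 0 reversed. Of 825 list medians 819 moved by less than 1 SD between libraries of a group, a wide measure under which the changes of sign of cortical and meningeal medians without 1 library still fall, and 122 of 825 counts of list members past the threshold moved by over 1.5 times or from 0. The ependymal median was -0.57 without a filter and 0.07 in the D2 line.

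Genes not past the threshold changed sign as follows. In the D2 line *Drd2* was 0.0095, *Ppp1r1b* 0.0299, *Sirt1* 0.14, *Slc17a7* -0.11 and *Col3a1* -0.13. In the D1 line *Cldn5* was 0.0322 and *Foxj1* -0.31. Without D1 Res 1 and D1 Res 3, *Drd2* was 0.0215, *Ppp1r1b* 0.0250, *Bdnf* -0.0637, *Sirt1* 0.0240 and *Slc17a7* -0.35, and *Slc17a7* was -0.10 with the cortical covariate. *Foxj1* was -0.00298 without the line term and -0.000416 with the replicate block. Over left-out libraries *Drd2* ran from -0.14 to 0.0222, *Ppp1r1b* from -0.0921 to 0.0399, *Bdnf* from -0.00823 to 0.54, *Slc17a7* from -0.14 to 0.43 and *Foxj1* from -0.0350 to 0.13. The cause was not tested.

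The main model did not pair Res with Con inputs by replicate number. Of 6 pairs, 3 correlated above 0.1 (0.003 to 0.411) and 3 matched their own number best. So few pairs cannot decide whether libraries of the same number share a batch. With the replicate block 509 of 15063 genes passed at an unadjusted p under 0.05 and 0 after adjustment.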
